A study of Mus musculus with 4 samples.

Results

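Antioxidant enzymes were examined in RNA-seq of mouse hearts at postnatal day 7 (P7). They are the 10 genes *Sod1*, *Sod2*, *Cat*, *Gpx1*, *Gpx3*, *Gpx4*, *Prdx3*, *Prdx5*, *Txn2* and *Txnrd2*, taken by symbol from the 24454 genes of the count table. All 10 passed the filter on low counts that left 14266 genes for testing. The study asked which genes respond when microRNA-128 is raised in cardiomyocytes (CMs), the contracting cells of the heart. Both groups carried miR-128TetRE, a tetracycline-responsive miR-128 transgene knocked into the Rosa26 locus. Ctrl hearts had that allele alone. In miR-128OE hearts it was driven by tTA, a transactivator made from the α-MHC promoter, which is active in CMs, and which doxycycline in the diet keeps off. The sources used here do not give the doxycycline schedule of these hearts, the chambers that were taken or whether each library came from 1 animal. Each group had 2 libraries, WH7 and WH8 for Ctrl and WH9 and WH10 for miR-128OE. The p-values therefore measure the spread between these libraries, which may be technical, and since Ctrl hearts lack tTA, tTA and miR-128 cannot be told apart.

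Respiration leaks electrons to oxygen and makes superoxide, and the beating heart, packed with mitochondria, makes it continuously. Superoxide dismutases turn superoxide into hydrogen peroxide. Catalase, glutathione peroxidases and peroxiredoxins then reduce the peroxide to water. Peroxiredoxins are recharged by thioredoxins, thioredoxins by thioredoxin reductases, and these draw on NADPH. The system exists in parallel in the mitochondrial matrix and in the cytosol, with separate genes for many of the steps. *Sod2*, *Prdx3*, *Prdx5*, *Txn2* and *Txnrd2* were taken as mitochondrial. *Sod1*, *Gpx1* and *Gpx4* (mainly cytosolic), *Cat* (peroxisomal) and *Gpx3* (secreted) formed the other group. *Prdx5*, *Gpx1* and *Gpx4* also have forms in other compartments, and gene counts do not separate these.

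Library totals ran from 8096870 to 14359838 counts, and WH8 was the shallowest. Both Ctrl libraries held reads of *Xist*, the RNA of the inactive X chromosome (14543 and 11339 counts), while the miR-128OE libraries held 94 and 132 counts of it and 1442 and 1768 counts of the Y-linked *Ddx3y*. Sex and condition therefore cannot be told apart. The gene *Mir128-2* had 0 counts in both Ctrl libraries and 2 and 10 counts in the miR-128OE libraries, and *Mir128-1* had 0 in all 4, which for a short precursor says little about mature miR-128. *Nppa*, an atrial hormone gene, ranged from 2746 normalized counts in WH8 to 31104 in WH7, so the Ctrl libraries stood far apart for some genes. A chi-square per degree of freedom over genes was 11.7 within Ctrl and 5.55 within miR-128OE, so neither pair was 1 library deposited in duplicate.

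Antioxidant enzyme transcripts were higher in miR-128OE hearts for most of the 10 genes, and the largest increases past the threshold were in 3 mitochondrial ones. By edgeR's quasi-likelihood test, 8 of the 10 rose at an adjusted p under 0.05, against 16.5% of all genes tested. The count was 4 of 5 in the mitochondrial group and 4 of 5 in the other group. None fell: 0 of 10 were lower by edgeR, by DESeq2 or at an unadjusted p under 0.05, where 15.0% of all genes were lower by edgeR. For 9 of the 10 genes both miR-128OE libraries lay above both Ctrl libraries, against 33.7% of all genes. These shares are over genes of all count levels past the filter and were not matched to the counts of the 10. The 10 were also chosen with earlier results of these data known. The median log2 fold change was 0.72 in the mitochondrial group and 0.38 in the other, beside −0.01 over all genes tested. *Prdx5*, *Prdx3* and *Sod2* rose 1.76-, 1.69- and 1.64-fold, whereas the other 5 genes past the threshold rose between 1.19- and 1.33-fold.

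**Figure D1:**
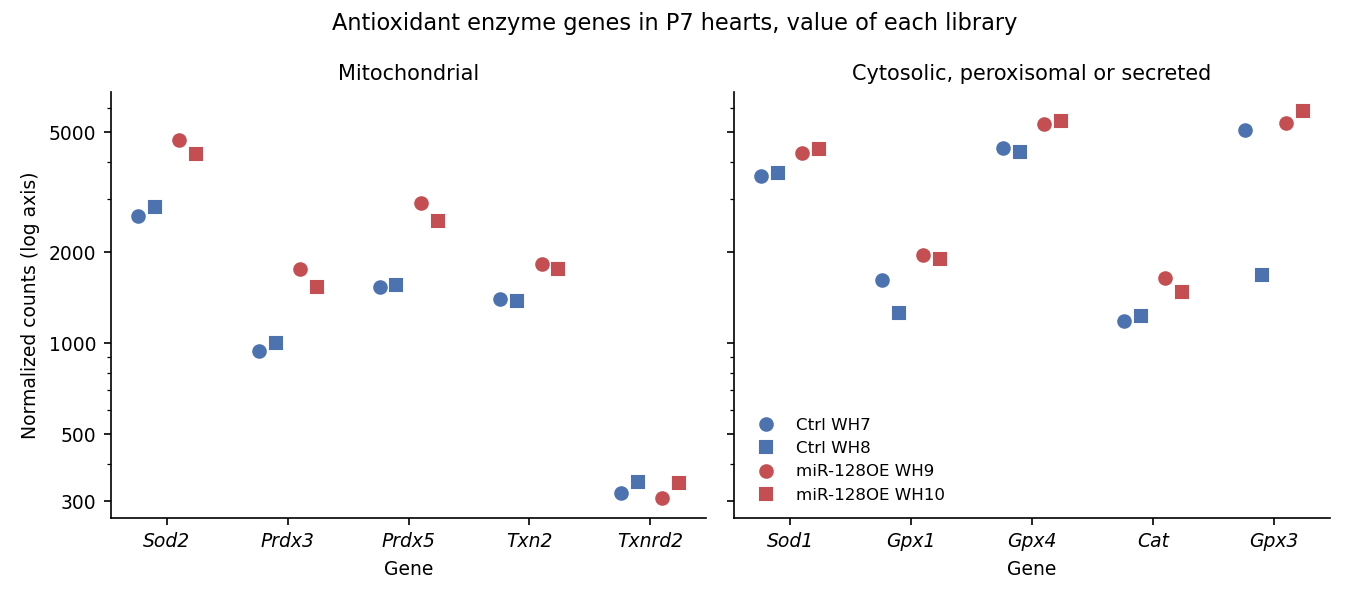
Normalized counts on a log axis for the 10 genes, each point a library (blue for Ctrl, red for miR-128OE), with mitochondrial genes on the left. The miR-128OE points lie above the Ctrl points for 9 of 10 genes. *Txnrd2* overlaps, and *Gpx3* in the Ctrl library WH8 stands at 1680.

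The larger increases held in every fit tried and the smaller ones did not. *Sod2*, *Prdx3* and *Prdx5* were past the threshold in 14 of 14 alternative settings. With scaling to total counts 5 of the 10 genes were higher, without WH10 (miR-128OE) 5 were, and without WH9 (miR-128OE) 3 were, namely those 3. Transcript length also moved with the fold changes. Among the 2732 genes with the shortest transcripts (up to 1820 bases), which held 6 of the 10, 25.2% were called higher and the median log2 fold change was 0.12. Among the 2730 with the longest (5186 bases or more), which held *Sod2*, these values were 11.4% and −0.11. With an offset for GC content and length 6 of the 10 remained higher.

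*Sod2* (chr17:13006846-13040063 of GRCm38, plus strand) encodes the manganese superoxide dismutase of the matrix. It had 2636 and 2824 normalized counts in Ctrl and 4714 and 4247 in miR-128OE hearts, a log2 fold change of 0.72 ± 0.09 (SE, adjusted p = 0.000474). Each miR-128OE library was above each Ctrl library by more than the gap within either group. *Prdx3*, the matrix peroxiredoxin (chr19:60864051-60874556, minus strand), had 946 and 1002 in Ctrl and 1766 and 1532 in miR-128OE hearts (0.76 ± 0.09, adjusted p = 0.000481). *Prdx5*, a peroxiredoxin of mitochondria, peroxisomes and cytosol (chr19:6906697-6910106, minus strand), had 1535 and 1566 in Ctrl and 2911 and 2533 in miR-128OE hearts (0.81 ± 0.09, adjusted p = 0.000284). In all 3 genes WH9 was the higher of the miR-128OE libraries. *Prdx5* shares 409 bases, 19.1% of its annotated exon length, with the antisense gene *Trmt112*, and how strand was treated in counting is not given in the sources used here. For *Trmt112* itself the log2 fold change was 0.07 ± 0.10 (adjusted p = 0.615).

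The thioredoxin part of the mitochondrial system moved less. *Txn2*, the matrix thioredoxin that recharges *Prdx3* and *Prdx5* proteins, had 1406 and 1382 normalized counts in Ctrl and 1839 and 1763 in miR-128OE hearts (0.37 ± 0.08, adjusted p = 0.00646). The groups did not overlap, and the increase was smaller than those of *Sod2*, *Prdx3* and *Prdx5*. Without WH9 the call was lost (adjusted p = 0.0943). *Txnrd2*, the selenium-containing reductase of *Txn2* protein, had 321 and 348 in Ctrl and 307 and 345 in miR-128OE hearts. It was the only one of the 10 whose libraries overlapped between groups, with a log2 fold change of −0.03 ± 0.12 (adjusted p = 0.867).

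In the non-mitochondrial group, the increases past the threshold were modest. This holds for the genes chosen for that group, since some other cytosolic genes, such as *Prdx1* and *Prdx2* described below, rose more. *Sod1*, the copper and zinc superoxide dismutase of the cytosol, had 3569 and 3672 normalized counts in Ctrl and 4265 and 4385 in miR-128OE hearts (0.26 ± 0.08, adjusted p = 0.0328). Its groups were well apart, but the call was lost with upper-quartile factors (0.21, adjusted p = 0.0682), total counts (0.16, adjusted p = 0.143) and the offset for GC content and length (0.09, adjusted p = 0.469), and without WH9 (adjusted p = 0.172) or WH10 (adjusted p = 0.2). *Cat*, the catalase of peroxisomes, had 1182 and 1228 in Ctrl and 1651 and 1479 in miR-128OE hearts (0.38 ± 0.09, adjusted p = 0.00968). It kept its call in every scaling tried and lost it without WH9 (adjusted p = 0.137).

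Of the 3 glutathione peroxidases, all selenoproteins, 2 rose, and the third varied most between the Ctrl libraries. *Gpx1*, the main cytosolic enzyme, had 1627 and 1259 normalized counts in Ctrl and 1963 and 1903 in miR-128OE hearts (0.42 ± 0.11, adjusted p = 0.0205). Its log2 fold change was 0.25 without WH8 and 0.62 without WH7, and its call was lost without WH9 (adjusted p = 0.132) or WH10 (adjusted p = 0.0818). *Gpx4*, which reduces lipid peroxides in membranes, had 4423 and 4316 in Ctrl and 5309 and 5437 in miR-128OE hearts (0.30 ± 0.08, adjusted p = 0.0194). With total counts the adjusted p was 0.0637 for *Gpx1* and 0.0793 for *Gpx4*, and with the offset for GC content and length it was 0.163 for *Gpx4*. Without WH9 or WH10 it was 0.138 and 0.149 for *Gpx4*. *Gpx3*, the secreted enzyme found in plasma, had 5073 and 1680 in Ctrl and 5363 and 5862 in miR-128OE hearts. Its libraries did not overlap between groups, but WH8 alone was low, and the log2 fold change of 0.73 ± 0.36 did not pass the test (adjusted p = 0.159). The value was 0.15 without WH8 and 1.74 without WH7. *Gpx1* was also lowest in WH8, as was the summed level of 10 fibroblast markers, at 79562 normalized counts against 108065 to 121528 in the other 3 libraries. The part of fibroblast RNA in these values was not tested.

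**Figure D2:**
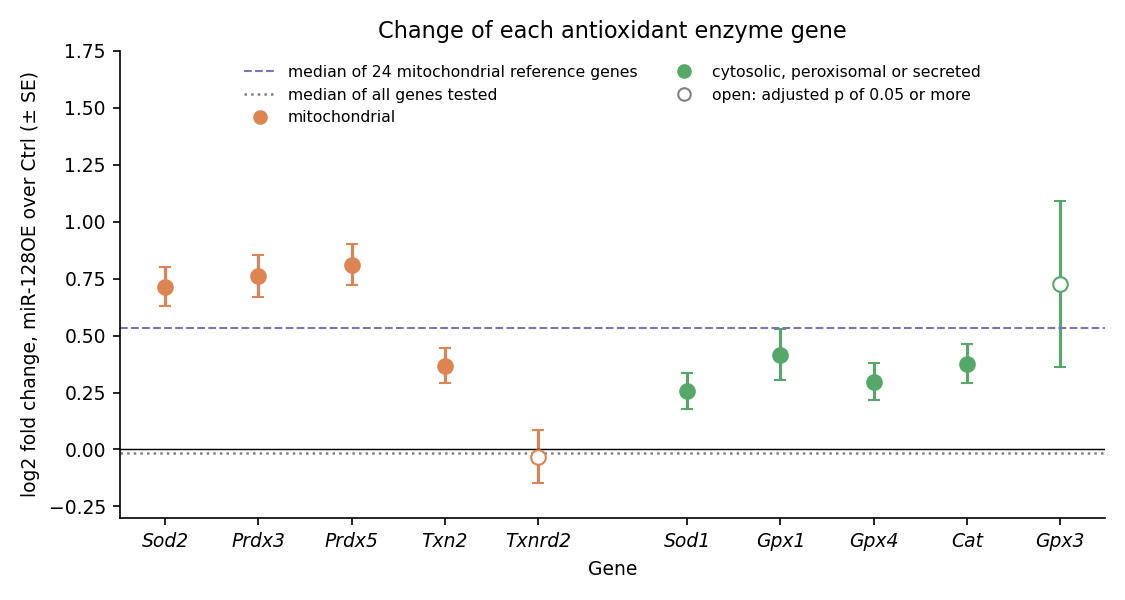
Log2 fold change of miR-128OE over Ctrl for each gene with its SE (n = 2 libraries per group), from edgeR, with open points where the adjusted p was 0.05 or more. *Sod2*, *Prdx3* and *Prdx5* lie above the median of 24 mitochondrial reference genes (dashed line, 0.53), and the other 5 genes past the threshold lie between it and 0.

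Levels were compared between genes as normalized CPM per kb of the longest coding transcript, written here as per kb. In Ctrl hearts *Sod1* stood highest at 479 per kb, followed by *Gpx4* at 373, *Gpx3* at 180, *Gpx1* at 114 and *Prdx5* at 104. *Txn2* (57.8), *Prdx3* (55.9), *Sod2* (39.5), *Cat* (39.2) and *Txnrd2* (9.87) followed. These values, and so the order, depend on the transcript length used. For *Sod2* it was 5861 bases, and its longest annotated 3′UTR has 4963. Levels with shorter transcripts were not computed. In Ctrl the ranges of the neighbours *Gpx3* and *Gpx1*, *Gpx1* and *Prdx5*, *Txn2* and *Prdx3*, and *Sod2* and *Cat* overlapped, so their order there is not resolved. In miR-128OE hearts *Prdx5* reached 183 per kb, above *Gpx1* at 153, and *Prdx3* reached 94.7, above *Txn2* at 74.6, with no overlap in either case. *Txnrd2* was lowest in both groups, at 9.63 per kb in miR-128OE hearts.

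The mitochondrial and the cytosolic enzyme of a family were then compared by the ratio of their counts within a library, which does not depend on the scaling between libraries. The *Sod2* to *Sod1* ratio was 0.739 and 0.769 in Ctrl and 1.11 and 0.969 in miR-128OE hearts, a difference of 0.46 on the log2 scale. It was higher in 2 of 2 miR-128OE libraries. *Prdx3* to *Prdx1* was 0.364 and 0.383 in Ctrl and 0.425 and 0.397 in miR-128OE hearts, a difference of 0.14 that was 0.089 without WH9. With *Prdx2* as the cytosolic partner the groups overlapped (0.223 and 0.244 against 0.267 and 0.238). The *Txn2* to *Txn1* ratio overlapped too, with 0.939 and 1.01 in Ctrl and 0.953 and 0.920 in miR-128OE hearts. *Txnrd2* to *Txnrd1* was lower, with 0.554 and 0.555 in Ctrl and 0.425 and 0.519 in miR-128OE hearts, a difference of −0.24 that was −0.38 without WH10 and −0.095 without WH9. In both miR-128OE libraries the superoxide dismutase ratio lay on the mitochondrial side of the Ctrl values and the thioredoxin reductase ratio on the cytosolic side.

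In 3 further pairs, the glutaredoxins *Glrx2* and *Glrx* gave a ratio of 1.71 and 1.88 in Ctrl and 0.946 and 1.09 in miR-128OE hearts, the largest difference of the 7 pairs at −0.82. The NADPH-making isocitrate dehydrogenases *Idh2* and *Idh1* had a ratio of 19.3 and 27.0 in Ctrl and 29.5 and 30.8 in miR-128OE hearts, a difference of 0.40 that was 0.64 without WH8 and 0.16 without WH7. For the malic enzymes *Me3* and *Me1* it was 0.513 and 0.483 in Ctrl and 0.578 and 0.616 in miR-128OE hearts. The smallest two-sided p that an exact permutation test of 2 against 2 libraries allows is 0.333. By this exact permutation test the 6 pairs that did not overlap had this p (0.389 after Benjamini-Hochberg adjustment over 7 pairs), and the *Txn2* pair had p = 0.667.

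**Figure D3:**
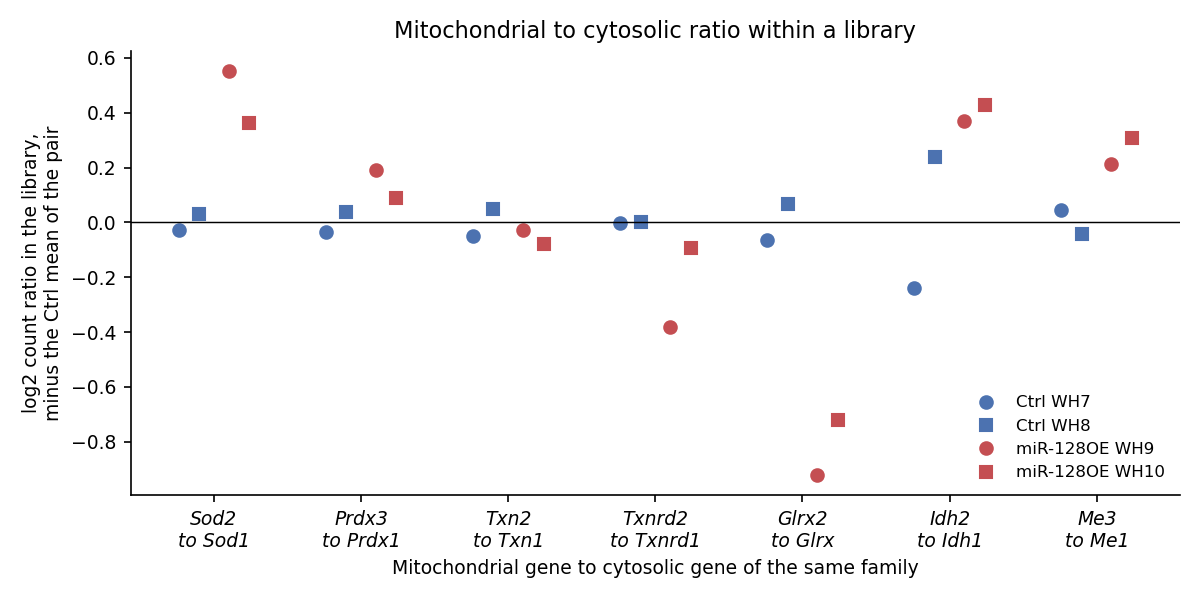
Log2 ratio of the counts of a mitochondrial gene to its cytosolic relative in each library, minus the Ctrl mean of the pair, for 7 pairs. *Sod2* to *Sod1* lies above Ctrl in both miR-128OE libraries (difference 0.46), *Txn2* to *Txn1* overlaps, and *Txnrd2* to *Txnrd1* (−0.24) and *Glrx2* to *Glrx* (−0.82) lie below.

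Mitochondrial genes outside antioxidant defence rose as well. The 24 reference genes include respiratory chain subunits, import proteins, chaperones and channels of the mitochondrion. Of these, 20 rose, against 16.5% of all genes tested, and the median log2 fold change of the 24 was 0.53. Examples are *Ndufa9*, a complex I subunit (0.89 ± 0.09, adjusted p = 0.000156), *Cox4i1*, a complex IV subunit (0.81 ± 0.09, adjusted p = 0.000284), and *Ndufs1*, another complex I subunit (0.83 ± 0.09, adjusted p = 0.000293). The levels of the 10 enzymes were therefore also taken relative to the mean log2 count of the 24 genes in the same library. On this scale *Prdx5*, *Prdx3* and *Sod2* were still above Ctrl in both miR-128OE libraries, by 0.28, 0.23 and 0.19. *Cat* (−0.15), *Txn2* (−0.16), *Gpx4* (−0.23), *Sod1* (−0.27) and *Txnrd2* (−0.56) were below Ctrl in both. *Gpx1* (−0.09) and *Gpx3* (0.42) overlapped between the groups. Because the 24 genes rose, a gene without change falls on this scale by construction. The median log2 fold change was 0.53 for the 24 and −0.01 for all genes tested. The share of all genes that lay apart from Ctrl on this scale was not computed. For these relative values the exact permutation test has the same smallest p of 0.333. The mean of the 24 genes includes some that moved little, such as *Tfam* (0.03) and *Hspd1* (0.07). Its respiratory chain and ATP synthase subunits had log2 fold changes from 0.62 (*Sdha*) to 0.93 (*Uqcrc2*). *Sod2*, *Prdx3* and *Prdx5* lay within that range, so they did not rise beyond such subunits.

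**Figure D4:**
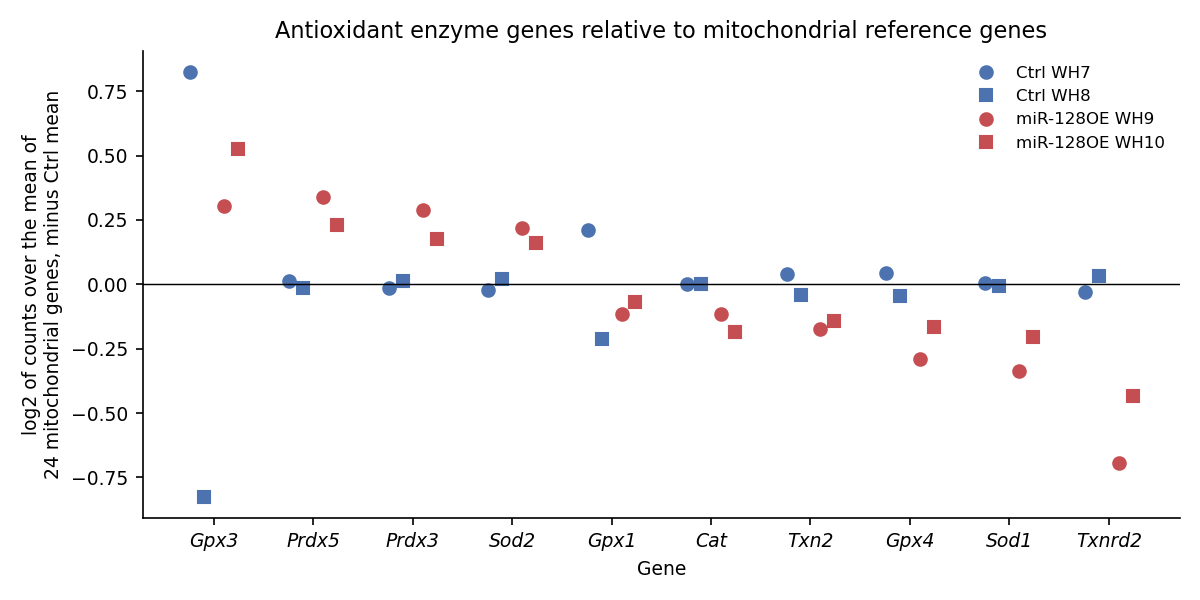
Log2 of each gene's counts over the mean of 24 mitochondrial reference genes in the same library, minus the Ctrl mean, with genes ordered by the difference between groups. *Prdx5*, *Prdx3* and *Sod2* lie above Ctrl, 5 genes from *Cat* to *Txnrd2* lie below, and *Gpx3* and *Gpx1* overlap.

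The composition of the hearts bears on these comparisons, and in bulk RNA fewer cells of a type and less RNA per cell cannot be told apart. All 12 CM markers were measured, 6 were higher and 2 lower, and their summed level was 653866 and 707409 normalized counts in Ctrl and 849443 and 830390 in miR-128OE hearts. Of 8 tested brown fat markers 4 were higher, *Ucp1*, *Cidea*, *Adipoq* and *Cox7a1*, the last of which heart muscle also expresses. *Ucp1*, which defines brown fat, gave 56 and 3 reads in the Ctrl libraries against 253 and 189 in the miR-128OE libraries, while *Elovl3* and *Cfd* had 6 or fewer in every library. The summed level of the list was 20961 and 21949 in Ctrl and 24293 and 22695 in miR-128OE hearts. Among erythroid markers the 4 globin genes were at 0 in all libraries, although *Alas2* had 215 to 899 counts. The zeros therefore cannot be read as absence of red cell RNA. *Alas2* was higher (1.05 ± 0.15, adjusted p = 0.00106) and was the 1 of 4 tested that passed. Fibroblast markers had 2 of 10 higher, and endothelial markers 2 higher and 2 lower of 10. Smooth muscle markers had 3 of 8 higher, *Acta2*, *Rgs5* and *Des*, and 1 lower, *Myh11* (−0.64), so they did not move together. All marker counts are to be read against the 16.5% of all genes tested that were higher and the 15.0% that were lower. Of 10 macrophage markers 0 passed by edgeR or DESeq2, and 1 was lower at an unadjusted p under 0.05. The part of CM, brown fat or red cell RNA in the enzyme values was not tested.

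The rest of the antioxidant network was described with 13 gene lists. Of 132 tested genes 41 were higher and 5 were lower, and the median log2 fold change was 0.16. Over all genes tested 16.5% were higher and 15.0% lower, and the counts of single lists are to be read against these shares. The shares of higher genes in the lists for glutathione synthesis, recycling and transport (3 of 13), cytosolic NADPH (1 of 5) and peroxisomes (5 of 26) were near that background. The cytosolic relatives of the mitochondrial peroxiredoxins rose nearly as much. *Prdx2* had 4236 and 4109 normalized counts in Ctrl and 6614 and 6433 in miR-128OE hearts (0.64 ± 0.08, adjusted p = 0.000546). *Prdx1* (0.62 ± 0.08) and *Prdx6*, which uses glutathione (0.58 ± 0.08), rose similarly. Of the 11 genes of this list 6 were higher, including the cytosolic thioredoxin *Txn1* (0.42, adjusted p = 0.0042), and *Txnrd1* had 0.20 (adjusted p = 0.128).

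Among the other superoxide dismutases and glutathione peroxidases, *Sod3*, the extracellular dismutase, was higher, with 399 and 201 normalized counts in Ctrl and 496 and 550 in miR-128OE hearts (0.77 ± 0.23, adjusted p = 0.0329). Like *Gpx3*, it was lowest in WH8, and DESeq2 did not call it. *Ccs*, the copper chaperone of *Sod1* protein, had 0.21 ± 0.10 (adjusted p = 0.138), *Gpx7* 0.22 ± 0.13 (adjusted p = 0.214) and *Gpx8* 0.10 ± 0.12 (adjusted p = 0.58). *Gpx2*, *Gpx5* and *Gpx6* did not pass the filter on low counts.

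Glutathione genes were mixed. Of 13 tested for its synthesis, recycling and transport 3 were higher, *Slc25a39*, a mitochondrial glutathione carrier (0.53 ± 0.09), and *Chac2* (1.04 ± 0.22) and *Ggct* (0.77 ± 0.22), which degrade glutathione and its breakdown products. *Gclc*, a subunit of the enzyme that starts its synthesis, had 0.17 (adjusted p = 0.314), and *Gsr*, which regenerates it, 0.09 (adjusted p = 0.58). Both of these were picked with their values in view. Of 12 glutathione S-transferases 5 were higher. The 3 with the smallest p were *Mgst3* with 997 and 1121 normalized counts in Ctrl and 2014 and 2000 in miR-128OE hearts (0.93 ± 0.09), *Gstm5* with 394 and 367 against 752 and 784 (1.01 ± 0.09), and *Gsto1* (0.88 ± 0.10). Of 4 glutaredoxins, *Glrx* (0.71 ± 0.11, adjusted p = 0.00169) and *Glrx5* of mitochondrial iron-sulphur assembly (0.35 ± 0.08, adjusted p = 0.00983) were higher. *Glrx3* had 0.14 ± 0.11 and *Glrx2* −0.12 ± 0.09, neither past the threshold.

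NADPH feeds both thioredoxin and glutathione reductases. Of 6 mitochondrial NADPH genes 3 were higher. *Nnt*, the transhydrogenase of the inner membrane, had 2275 and 3027 normalized counts in Ctrl and 6026 and 5246 in miR-128OE hearts (1.09 ± 0.13, adjusted p = 0.000459). The part of mouse substrain in the *Nnt* values was not tested, and the substrain of these hearts is not given in the sources used here. *Idh2* (0.59 ± 0.12) and *Me3* (0.82 ± 0.11) were the other 2, while the folate enzymes *Mthfd2* (0.18 ± 0.19), *Mthfd1l* (0.30 ± 0.21) and *Aldh1l2* (0.38 ± 0.18) did not pass. Of 5 cytosolic NADPH genes *Me1* was higher (0.56 ± 0.10, adjusted p = 0.00299). The pentose phosphate enzymes *G6pdx* (−0.06 ± 0.15), *Pgls* (−0.06 ± 0.08) and *Pgd* (−0.03 ± 0.09), and *Idh1* (0.19 ± 0.12), did not pass.

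The transcription factor NRF2, encoded by *Nfe2l2*, induces many antioxidant genes under oxidative stress. Of 15 regulators and targets 5 were higher and 1, *Mafg*, a binding partner of NRF2, was lower at the edge of the threshold (−0.33, adjusted p = 0.04997) and was not called by DESeq2. *Nqo1*, a quinone reductase, had 93.3 and 90.5 normalized counts in Ctrl and 197 and 187 in miR-128OE hearts (1.06 ± 0.16, adjusted p = 0.00128). *Sqstm1* (0.48 ± 0.08) and *Mafk* (0.62 ± 0.11) were higher too. *Nfe2l2* itself had 0.08 (adjusted p = 0.519), its inhibitor *Keap1* 0.06 (adjusted p = 0.656) and the target *Hmox1* −0.15 (adjusted p = 0.395), and these 3 were picked with their values in view. The list's median was 0.06.

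Several of the 10 enzymes need selenocysteine. Of 8 genes for selenoprotein synthesis 1 passed the threshold, *Secisbp2*, which recodes the UGA codon, and it was lower (−0.39 ± 0.12, adjusted p = 0.0329). DESeq2 called 0 genes of this list in either direction. *Sephs2* had 0.38 ± 0.13 (adjusted p = 0.0536) and *Eefsec* 0.41 ± 0.17 (adjusted p = 0.0981). Of 12 other selenoproteins tested 4 were higher, among them *Selenot* (0.56 ± 0.08), *Selenow* (0.49 ± 0.10) and *Selenok* (0.32 ± 0.08), and 1 was lower, *Selenon* (−0.25, adjusted p = 0.0473), which DESeq2 did not call.

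Methionine sulfoxide reductases repair oxidized protein. Of this list 5 of 6 genes were higher. *Msrb1*, a selenoprotein, had 396 and 349 normalized counts in Ctrl and 927 and 814 in miR-128OE hearts (1.22 ± 0.11, adjusted p = 0.000106). *Msrb3* (0.77 ± 0.08), *Msra* (0.65 ± 0.13), the mitochondrial *Msrb2* (0.40 ± 0.10) and *Park7* (0.34 ± 0.08) followed, and *Sirt3*, a mitochondrial deacetylase, had 0.21 ± 0.10 (adjusted p = 0.148).

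Of 10 enzymes and subunits that produce superoxide or peroxide, the monoamine oxidases of the outer mitochondrial membrane moved in opposite directions. *Maob* had 122 and 100 normalized counts in Ctrl and 260 and 224 in miR-128OE hearts (1.11 ± 0.16, adjusted p = 0.0012), and *Maoa* had 437 and 391 against 269 and 271 (−0.62 ± 0.11, adjusted p = 0.0034). Both genes are on the X chromosome. The list's median was −0.21. Peroxisomal genes, the setting of *Cat*, had 5 higher and 1 lower of 26, with a median of 0.14, where 16.5% of all genes were higher and DESeq2 called 1 of the 26 higher. *Pex19* (0.36 ± 0.08) and the beta-oxidation enzyme *Hsd17b4* (0.29 ± 0.08) were higher and *Pex6* was lower (−0.45 ± 0.10).

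**Figure D5:**
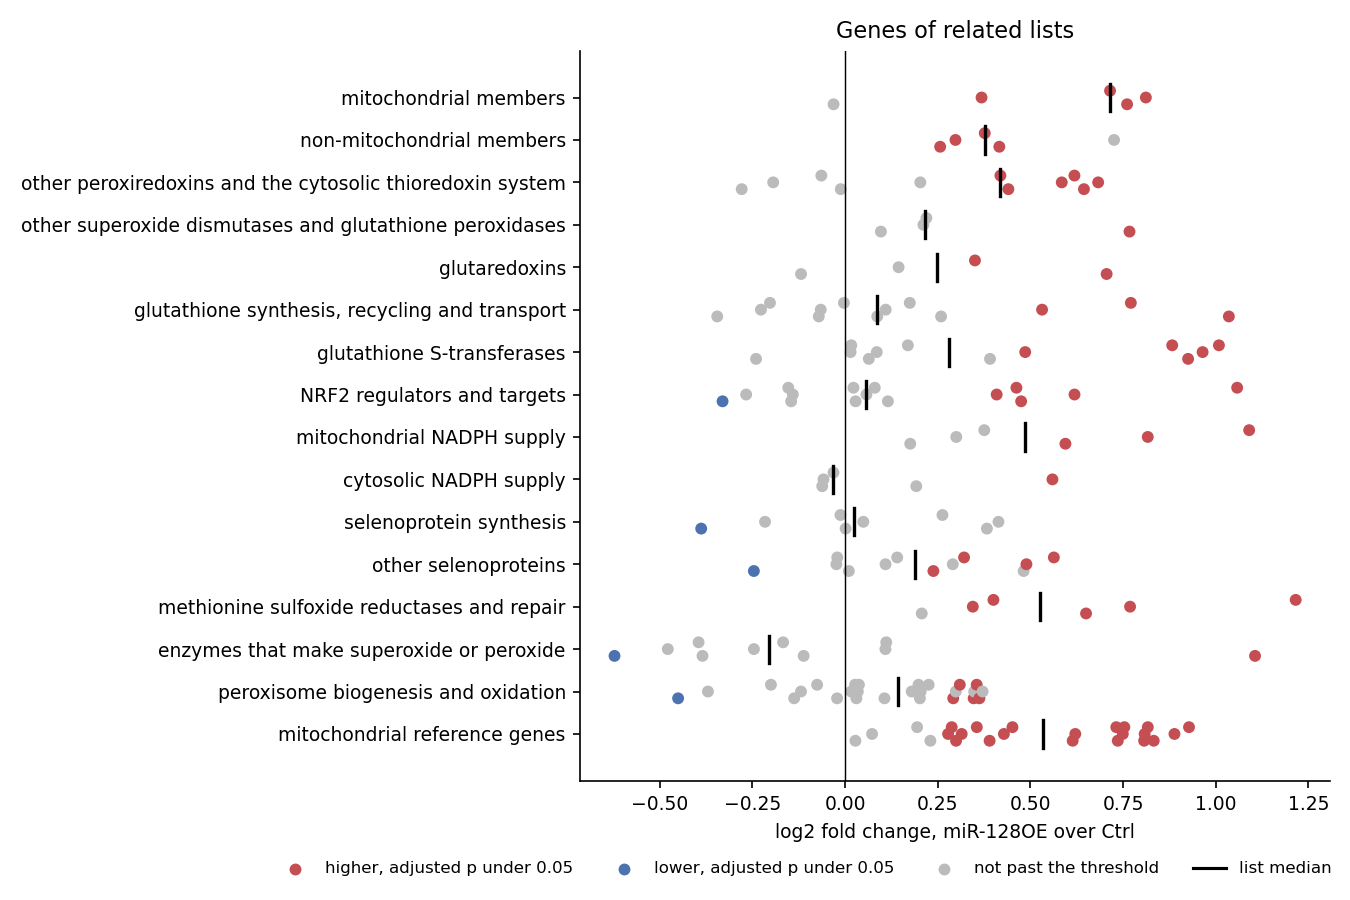
Log2 fold change of every tested gene of the enzyme groups, the 13 related lists and the 24 mitochondrial reference genes, with a bar at each list's median. Red and blue points passed an adjusted p of 0.05. The medians run from −0.21 for enzymes that make superoxide or peroxide to 0.72 for the mitochondrial antioxidant enzymes.

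Sequences were then examined for the link to miR-128 itself. A microRNA pairs with sites in 3′UTRs mainly through its seed, and such pairing can lower the level of its target. The mature sequence of miR-128-3p, from RefSeq GRCm38.p6, is shown with its seed (bases 2 to 8) in capitals, followed by every match in the longest annotated 3′UTR of the 10 genes. Matches, in capitals, are CACTGTG (pairing with bases 2 to 8) or ACTGTGA (bases 2 to 7 and an A), all on the plus strand of GRCm38.
miR-128-3p: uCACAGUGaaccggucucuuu
Sod2, chr17:13016256-13016262, 3′UTR: ttcctgtgCACTGTGgagatatc
Sod2, chr17:13018624-13018630, 3′UTR: tttactctCACTGTGtgcatgca
Gpx3, chr11:54909816-54909822, 3′UTR: gtctgaacCACTGTGgacacgtg
Gpx3, chr11:54910137-54910143, 3′UTR: ccaagacaACTGTGAgcgcgatg

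Sites were thus found in 2 of the 10 genes, beside 31.0% of the 13463 tested genes with an annotated 3′UTR. *Sod2*, whose 3′UTR spans 4963 bases, held 2 sites and rose. *Gpx3*, with 719 bases, held 2 sites and had higher counts in both miR-128OE libraries, with the spread given above. The other 8 genes, 7 of which rose, held no match. None of the matches was an 8mer (CACTGTGA), which 6.03% of tested genes hold. A match is a description of letters, not a measured target site.

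Promoters, from 250 bases before to 50 after the RefSeq start site, were searched on both strands for the core of the antioxidant response element bound by NRF2 (TGACNNNGC), the core of the nuclear respiratory factor NRF1 site and the element of the estrogen-related receptors (TCAAGGTCA), where N is any base. They were chosen because these factors act on antioxidant or mitochondrial genes. The response element core was found in *Sod1* alone of the 10, beside 3781 of all 27025 genes with a promoter sequence, and the NRF1 core in *Gpx4* alone, beside 5.19% of all genes. The receptor element was in 0 of 10 promoters and in 0.466% of all genes. The 2 matches are shown on the plus strand of GRCm38 with the motif in capitals, which in both is the reverse complement of the letters searched.
Sod1, chr16:90220706-90220714, promoter: caaggtggGCGTGGTCAgactcagg
Gpx4, chr10:80053506-80053515, promoter: gcgtcttaGCGCAGGCGCatctgacc
Neither motif was found in this window in the genes that rose together, *Sod2*, *Prdx3* and *Prdx5*. Most genes lack these motifs there, so their absence says little about how these genes are regulated.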

How the data were processed

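RNA-seq was performed on total RNA of P7 hearts. After low-quality reads had been removed, the authors used TopHat2 for alignment to mm10 and counted reads on known genes. The deposited values are these raw counts per gene and library. Gene models, strand and the rule for reads that match several genes are not given in the sources used here, so near-identical copies (such as pseudogenes of *Gpx4* and *Prdx1*) and antisense partners are uncertain. Of 24454 Entrez identifiers 24374 were matched to a symbol.

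edgeR 4.0.16 in R 4.3.3 was used on all 4 libraries, with filterByExpr defaults, TMM factors, the two-sided quasi-likelihood test and Benjamini-Hochberg adjustment over 14266 genes (threshold 0.05). Counts scaled by TMM to the mean effective library size are called normalized counts, fold changes are on the log2 scale, and the SE of one was obtained by dividing it by the root of its F statistic. The common biological variation was 8.78%, and the prior degrees of freedom were 7.44. On simulated counts for 14266 genes in this comparison, the test recovered 39% of changes of 0.5 (log2) and 88% of changes of 1, and 3.05% of calls were false. The simulation changed a small part of the genes and gave each gene the variation fitted for its level of counts. In the data far more genes were called, and some varied more, so these rates need not hold there. A count of 0 allows up to 3 counts, which is 0.209 to 0.371 CPM, and this covers counting error only.

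Ratios within a library were tested with an exact permutation test (Python 3.11.15, scipy 1.17.1). GENCODE M21 (GRCm38) gave lengths, 3′UTRs and overlaps, and RefSeq GRCm38.p6 gave the miRNA and promoter sequences. The 10 genes and all lists were chosen with earlier results of these data known. Named genes are the 10, both genes of each pair, every gene of a list with 6 or fewer tested, and otherwise the 3 with the smallest p. Not every gene that this selects is reported here. *Txn1*, *Txnrd1* and *Idh1* are pair partners. *Mafg* and *Selenon* were named after their values were seen. Alternatives were DESeq2 1.42.0, the edgeR exact test, other factors, filters, thresholds, compartments, pair partners and site types, and each library left out. The offset for GC content and transcript length (loess, span 0.5) was added after seeing the data. RNA-seq of P1 and P28 hearts was not analysed here.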

Additional observations from a re-analysis of the deposited data

How the results depend on the processing

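Of the 10 antioxidant genes 8 were called higher, and this count became 5 with total counts, 5 at an adjusted p under 0.01, 3 with a minimum of 1.5-fold and 3 to 9 with a library left out. For the non-mitochondrial group the count of 4 became 1 with total counts, 2 with the offset for GC content and length, 1 at an adjusted p under 0.01, 0 with a minimum of 1.5-fold (edgeR, where 4 had an unadjusted p under 0.05), 2 without *Prdx5*, *Gpx1* and *Gpx4*, and 0 to 5 with a library left out, the lowest without WH9. The mitochondrial count of 4 stayed between 3 and 4. In the related lists the 41 higher genes became 20 with a minimum of 1.5-fold and 21 to 47 with a library left out. The 5 lower genes became 9 with total counts, 2 with DESeq2, 2 with the offset, 1 at an adjusted p under 0.01, 1 with a minimum of 1.5-fold and 0 to 7 with a library left out. Total counts moved the median of all genes to −0.11 and upper-quartile factors to −0.06, and the share of higher among called genes from 52.3% to 35.3% and 44.2%. The sign of *Txnrd2* turned, with a range of −0.10 to 0.061 with a library left out (0.029 without WH8 and 0.061 without WH9), never past the threshold. *Gpx3* was called by edgeR's quasi-likelihood test without a filter (0.74, adjusted p = 1.59e-13), although its Ctrl libraries stood at 5073 and 1680 normalized counts. In that fit *Sod2* too had a far smaller adjusted p (2.46e-13 against 0.000474) at nearly the same log2 fold change (0.73 against 0.72). This small p for *Gpx3* is therefore not a measure of its own spread. For *Gpx3* the log2 fold change was 1.74 without WH7. Seed sites in the 10 genes went from 2 genes to 0 when only 8mers counted. The cause of these shifts was not tested, apart from stricter thresholds, which lower counts by construction. Without WH7 counts of higher genes rose to the upper ends given above. Leaving out a library leaves 1 sample in a group, which is then assumed to vary like the others. No paired analysis was possible because the library labels carry no replicate numbers shared between groups.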
